A study of Mus musculus with 14 samples.

Results

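The Nodal pathway genes described here are Nodal, Lefty1, Lefty2, Tdgf1, Smad7 and Skil, 6 genes of the 22380 protein-coding genes in the GENCODE vM1 annotation of the mouse genome (mm9). They were chosen by name, with earlier results of these data known. Every peak of 8 ChIP-seq peak lists whose centre lay within 100 kb of one of the 6 gene bodies was taken. This gave 62 of the 24416 peaks, which fell into 25 of 17248 sites. A site is a group of peaks whose centres are chained together by steps of at most 100 bp. Lefty1 and Lefty2 lie next to each other on chromosome 1 and share the same 4 sites, so the 6 genes make up 5 loci.

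The lists come from mouse embryonic stem (ES) cells in which a FLAG-tagged copy of the mouse Sim2 gene, which encodes a bHLH-PAS transcription factor, is switched on when tetracycline is removed from the medium. FLAG ChIP was done in 1 culture each of the clones A6, B8 and C4, which carry the transgene, and of the EB3 parental line, which does not. All 4 lines carry the tetracycline-regulated system, were kept in medium with LIF and were induced for 26 h. The transgene is driven by an inducible promoter derived from human CMV, A6, B8 and C4 are each 1 clone, and each of the NANOG, OCT4, MED1 and MED12 lists comes from 1 library of clone A6, so that these 4 factors were mapped in cells that also made Sim2-FLAG. MED1 and MED12 are subunits of Mediator, the complex that connects enhancer-bound factors with RNA polymerase II.

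Nodal is a secreted ligand of the TGF-beta family. With its coreceptor, the Cripto protein encoded by Tdgf1, it signals through activin receptors to SMAD2 and SMAD3, which enter the nucleus with SMAD4 and bind DNA together with FOXH1. The pathway controls its own strength: Lefty1 and Lefty2 are secreted antagonists, Smad7 is an inhibitory SMAD, and Skil encodes SnoN, a corepressor that holds SMAD complexes in check. These genes are known to be active in mouse ES cells and in the early embryo, and NANOG and OCT4 are the factors best known for the pluripotent state of these cells.

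Sequences are shown for 6 sites that the results below return to, as 200 bp windows centred on the site, on the plus strand of mm9. Capitals mark exact matches, on either strand, to the letters of a motif: the octamer ATGCAAAT of OCT4, CCATTGT of SOX factors, GCCATTA of NANOG, CCACACCC of KLF factors, AATNCACA of FOXH1, the SMAD palindrome GTCTAGAC, and TACGTG, the core bound by SIM and ARNT dimers.

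At the Lefty locus, the 2 sites with most factors are shown because they differ in whether SIM2 was listed. The first, at chr1:182854876-182855075, held NANOG, OCT4, MED1 and MED12 but no SIM2 peak. The second, at chr1:182818888-182819087, held SIM2 in A6 with NANOG, OCT4 and MED12.
Lefty1 -10.2 kb: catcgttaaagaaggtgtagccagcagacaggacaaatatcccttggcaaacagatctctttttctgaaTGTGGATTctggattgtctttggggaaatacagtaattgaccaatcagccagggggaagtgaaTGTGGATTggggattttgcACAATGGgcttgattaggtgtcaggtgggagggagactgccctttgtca
Lefty2 -4.3 kb: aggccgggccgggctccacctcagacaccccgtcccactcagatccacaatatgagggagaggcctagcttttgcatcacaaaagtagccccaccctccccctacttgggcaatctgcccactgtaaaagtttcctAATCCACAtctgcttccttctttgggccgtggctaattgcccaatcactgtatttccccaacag
The first window contained AATNCACA in 2 places, centred 27 bp and 36 bp from the site's centre, and CCATTGT at 54 bp. The second contained AATNCACA once, 40 bp from its centre. Neither contained the octamer or TACGTG.

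Near Tdgf1 and Nodal, the site with SIM2 in all 3 clones (chr9:110849628-110849827) and the only site near Nodal with a SIM2 peak (chr10:60878693-60878892) are shown.
Tdgf1 -1.1 kb: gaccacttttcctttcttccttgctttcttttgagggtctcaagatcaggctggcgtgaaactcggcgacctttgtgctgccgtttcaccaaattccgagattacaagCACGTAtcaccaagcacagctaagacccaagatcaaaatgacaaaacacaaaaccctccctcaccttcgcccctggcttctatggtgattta
Nodal -1.9 kb: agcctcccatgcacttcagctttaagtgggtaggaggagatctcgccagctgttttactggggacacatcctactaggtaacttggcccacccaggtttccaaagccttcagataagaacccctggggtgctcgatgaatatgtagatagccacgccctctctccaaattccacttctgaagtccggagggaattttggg
The Tdgf1 window contained TACGTG on the minus strand, centred 11 bp from the site's centre. The Nodal window contained no match to any of the 7 motifs.

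Upstream of Skil, a site with a SIM2 peak in A6 (chr3:30903878-30904077) and a site with NANOG and OCT4 but no SIM2 peak (chr3:30988413-30988612) are shown because both contained AATNCACA close to the centre.
Skil -90.0 kb: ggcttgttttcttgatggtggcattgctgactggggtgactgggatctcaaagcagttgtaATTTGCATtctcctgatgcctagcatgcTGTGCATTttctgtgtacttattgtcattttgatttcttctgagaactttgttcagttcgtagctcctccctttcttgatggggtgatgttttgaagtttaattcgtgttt
Skil -5.5 kb: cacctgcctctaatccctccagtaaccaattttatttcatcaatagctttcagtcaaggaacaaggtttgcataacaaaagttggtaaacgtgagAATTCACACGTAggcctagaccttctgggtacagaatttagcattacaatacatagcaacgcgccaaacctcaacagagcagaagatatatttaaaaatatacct
In the first window the octamer lay 35 bp and AATNCACA 7 bp from the centre. In the second, AATNCACA lay 1 bp and TACGTG 4 bp from the centre, and the 2 matches overlapped.

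Across the 25 windows, AATNCACA was found in 5, the octamer in 3, CCACACCC in 2, TACGTG in 2, CCATTGT in 1, GCCATTA in 1 and GTCTAGAC in 0. Over all 14815 NANOG windows of the same length, the shares were 6.51% for AATNCACA, 6.94% for the octamer, 3.78% for CCACACCC, 1.17% for TACGTG, 8.59% for CCATTGT, 3.08% for GCCATTA and 0.196% for GTCTAGAC. Over the windows of all SIM2 sites (found in at least 2 clones), the shares were 5.79%, 7.7%, 3.89%, 3.17%, 8.1%, 2.46% and 0.238% in the same order. None of the 5 windows with AATNCACA belonged to a site with SIM2 in at least 2 clones. The 2 windows with CCACACCC were the Smad7 sites at -6.7 and +97.5 kb, both found in all 3 clones. These matches are descriptions of the sequence, and they were too few for a comparison of shares.

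**Figure D1:**
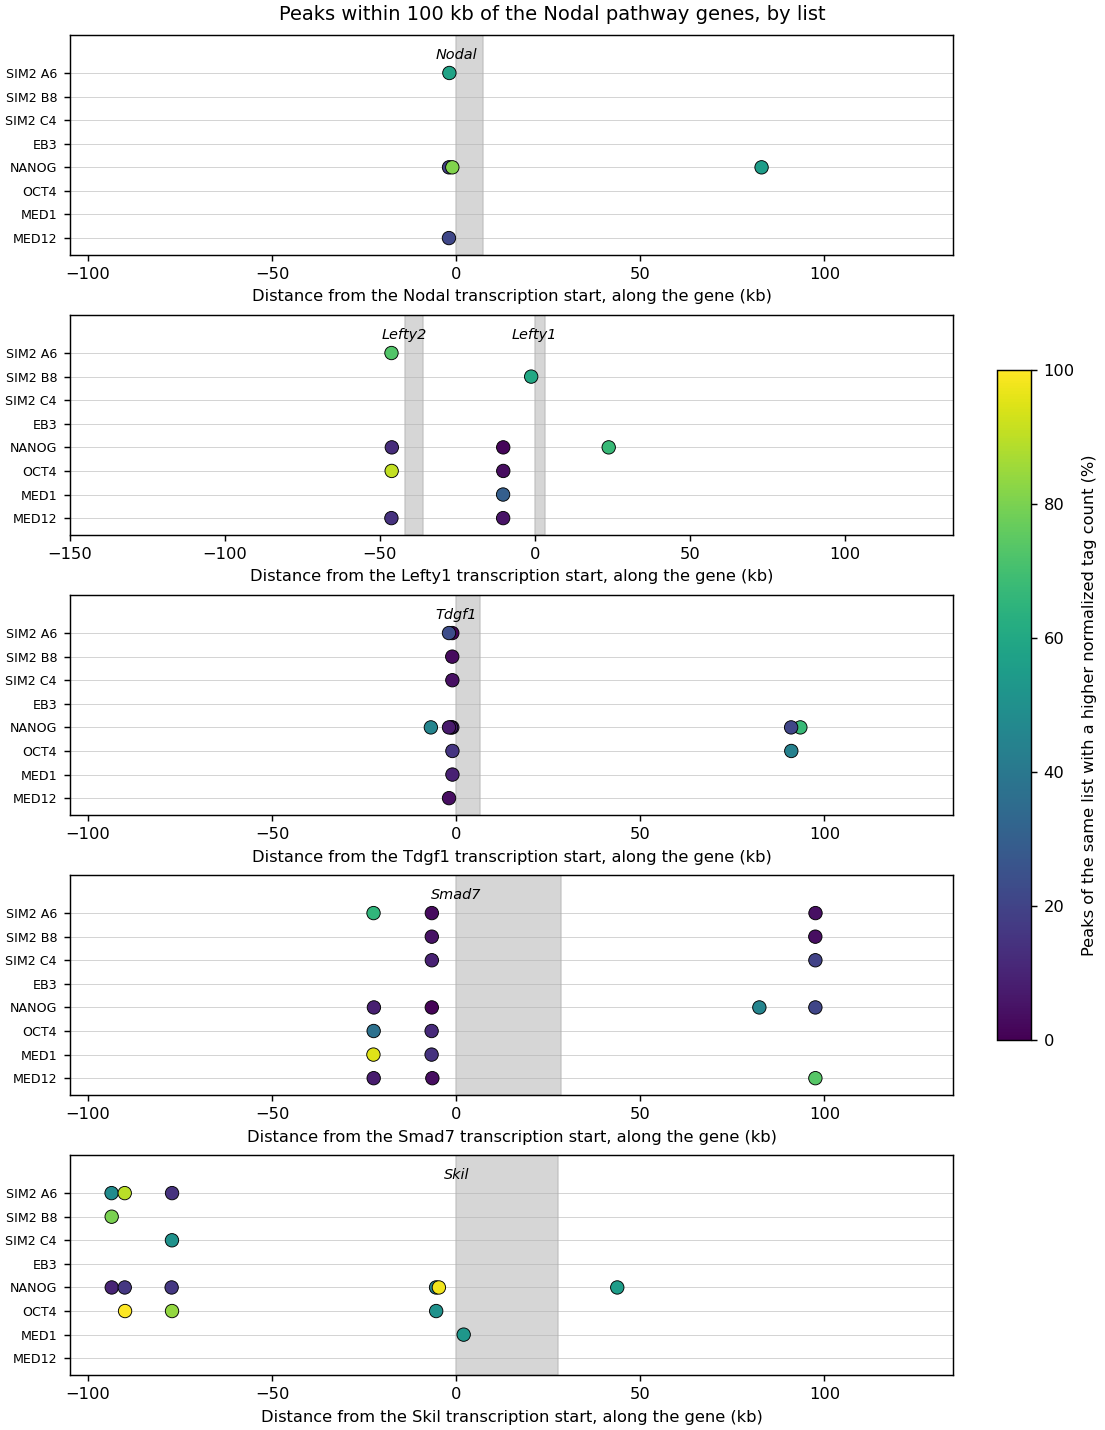
Peaks within 100 kb of the 6 genes in each of the 8 lists, 1 panel per locus, with the distance from the transcription start along the gene on the x axis (kb) and the gene bodies in grey. Point colour gives the percentage of the same list's peaks with a higher normalized tag count, so dark points are the stronger peaks. The EB3 rows are empty, and peaks of several lists lie above each other at -1.1 kb of Tdgf1 and at -6.7 and +97.5 kb of Smad7.

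Each list gives for every peak a normalized tag count, a strength value from the peak caller, and a column of tags. In A6 the 2 columns differ by a nearly constant factor (0.836 to 0.846 over the list), but in NANOG the normalized count per tag ran from 0.0615 to 0.775 and in B8 from 0.0583 to 0.682, so the normalized count is not simply the listed tags scaled by library size. How it was derived is not given in the sources used here. Its scale differs between lists, so each peak was ranked within its own list, and its place is given as the percentage of the list's peaks with a higher count. A low percentage is a strong peak by this value. Ranks by the caller's score or by fold over the input are given for a few statements only, and other places can differ by them. The NANOG peak at Nodal -1.1 kb had 81.0% above it by count, 36.1% by score and 42.3% by fold. For MED12 at Nodal -1.9 kb these were 21.3%, 40.2% and 51.3%. For B8 at Skil -93.6 kb they were 79.7%, 40.1% and 41.7%, and for C4 at Smad7 +97.5 kb 19.8%, 40.1% and 43.9%. The 62 peaks comprised 10 of the 2387 peaks of A6, 5 of 2137 of B8, 4 of 631 of C4, 0 of 81 of EB3, 22 of 14815 of NANOG, 9 of 2532 of OCT4, 5 of 762 of MED1 and 7 of 1071 of MED12. The median peak had 20.3% of its list above it. Among the strongest 10% of their lists were 3 of the 10 A6 peaks, 3 of the 5 B8 peaks, 2 of the 4 C4 peaks, 6 of the 22 NANOG peaks, 1 of the 9 OCT4 peaks, 1 of the 5 MED1 peaks and 4 of the 7 MED12 peaks.

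**Figure D2:**
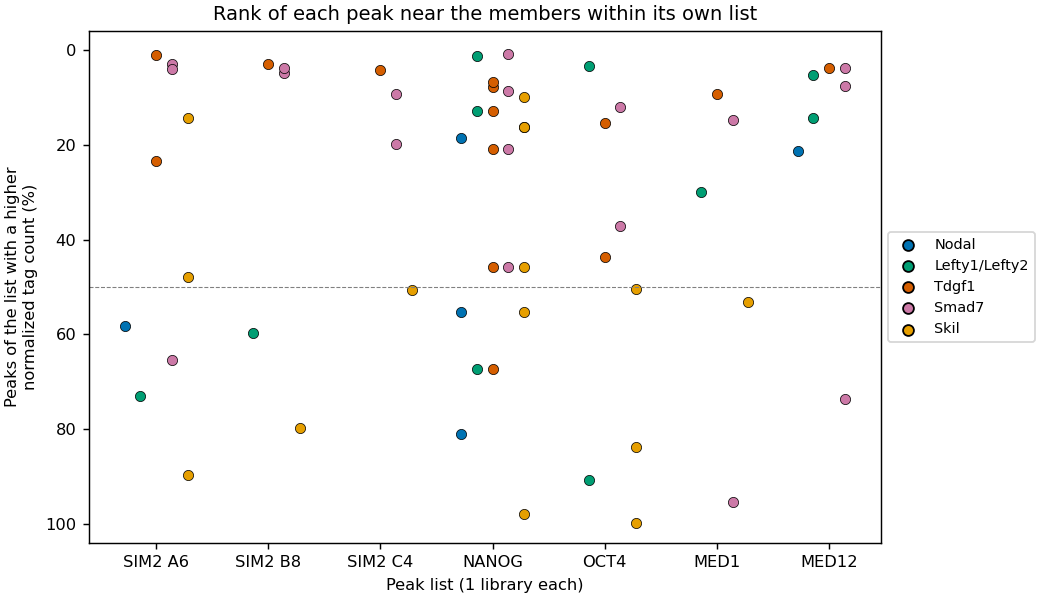
Each of the 62 peaks by list (x axis) and by the percentage of that list's peaks with a higher normalized tag count (y axis, strongest at the top), coloured by locus, with the middle of each list as a dashed line. In B8 and C4 the Tdgf1 and Smad7 peaks lie above all others, in A6 the Tdgf1 -2.0 kb (23.3%) and Smad7 -22.4 kb (65.4%) peaks lie lower, and the peaks of the Nodal and Lefty loci in these lists lie below the line. In NANOG 2 Skil points coincide at 16.3%.

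SIM2 was listed in at least 1 clone at 11 of the 25 sites, and at 14 it was in none. Of all 17248 sites, 3521 held SIM2 in at least 1 clone and no EB3 peak, and 1260 of these in at least 2 clones. Of the 11 sites, 3 were in all 3 clones, 2 in 2 clones, 5 in A6 only and 1 in B8 only. The sites in all 3 clones lay near Tdgf1 and Smad7, and those in 2 clones upstream of Skil. None of the 25 sites held a peak of the EB3 control.

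In clone A6, only the peaks in the highest 10% of the list were all shared with both other clones. These 3 peaks lay at Tdgf1 -1.1 kb and at the Smad7 sites -6.7 and +97.5 kb. Of the 3 A6 peaks between the highest 10% and the middle of the list, 1 was also in B8, 1 in C4 and 0 in both. The peak at Tdgf1 -2.0 kb (23.3% above) was in no other clone, while the weaker peak at Skil -93.6 kb (47.8%) was in B8. Of the 4 A6 peaks below the middle, at Nodal -1.9 kb, Lefty2 -4.3 kb, Smad7 -22.4 kb and Skil -90.0 kb, 0 were in another clone. Ranked by score, 1 of the 3 peaks from the highest 10% to the middle and 1 of the 4 below it were in another clone. Over the whole A6 list, 96.3% of the highest 10%, 62.2% of those from there to the middle and 30.8% of those below it were peaks in B8, and 77.2%, 17.4% and 3.12% were peaks in C4. In the same order, 76.3% of the highest 10% (241 peaks), 14.9% of those from there to the middle (1023 peaks) and 2.23% of those below it (1123 peaks) were peaks in both other clones. The B8 and C4 lists are shorter than that of A6, so a site listed in A6 only is not shown to be unbound in the other clones.

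NANOG had a peak at 10 of the 11 sites with SIM2 in any clone, OCT4 at 6, MED12 at 5 and MED1 at 3. Among all 3521 sites of the genome with SIM2 in any clone, 58.0% held NANOG, 28.2% OCT4, 15.3% MED12 and 6.19% MED1. A single site, at Lefty1 -1.1 kb, had SIM2 in B8 and no other factor. At the 5 sites with SIM2 in at least 2 clones, NANOG was present at 5, OCT4 at 3, MED1 at 2 and MED12 at 1. Among all 1260 such sites of the genome, 77.0% held NANOG, 44.6% OCT4, 10.2% MED1 and 26.0% MED12. In the other direction, 10 of the 22 NANOG sites held SIM2 in some clone, against 13.8% of all NANOG sites. With 5 sites near these genes, no share was compared by a test.

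At least 3 factors met at 10 of the 25 sites, counting SIM2 (any clone), NANOG, OCT4, MED1 and MED12. NANOG was at 10 of these, SIM2 at 9, a Mediator subunit at 8 and OCT4 at 7. MED1 or MED12 was at 10 of the 25 sites, and both were at 2 of them, at Lefty1 -10.2 kb and Smad7 -22.4 kb. A further 9 sites held NANOG alone, with normalized tag counts between 2.3 and 16.3. Of all 17248 sites, 14815 held NANOG. How many of all sites held at least 3 factors, a Mediator subunit or NANOG alone was not counted, so these counts are descriptions only.

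**Figure D3:**
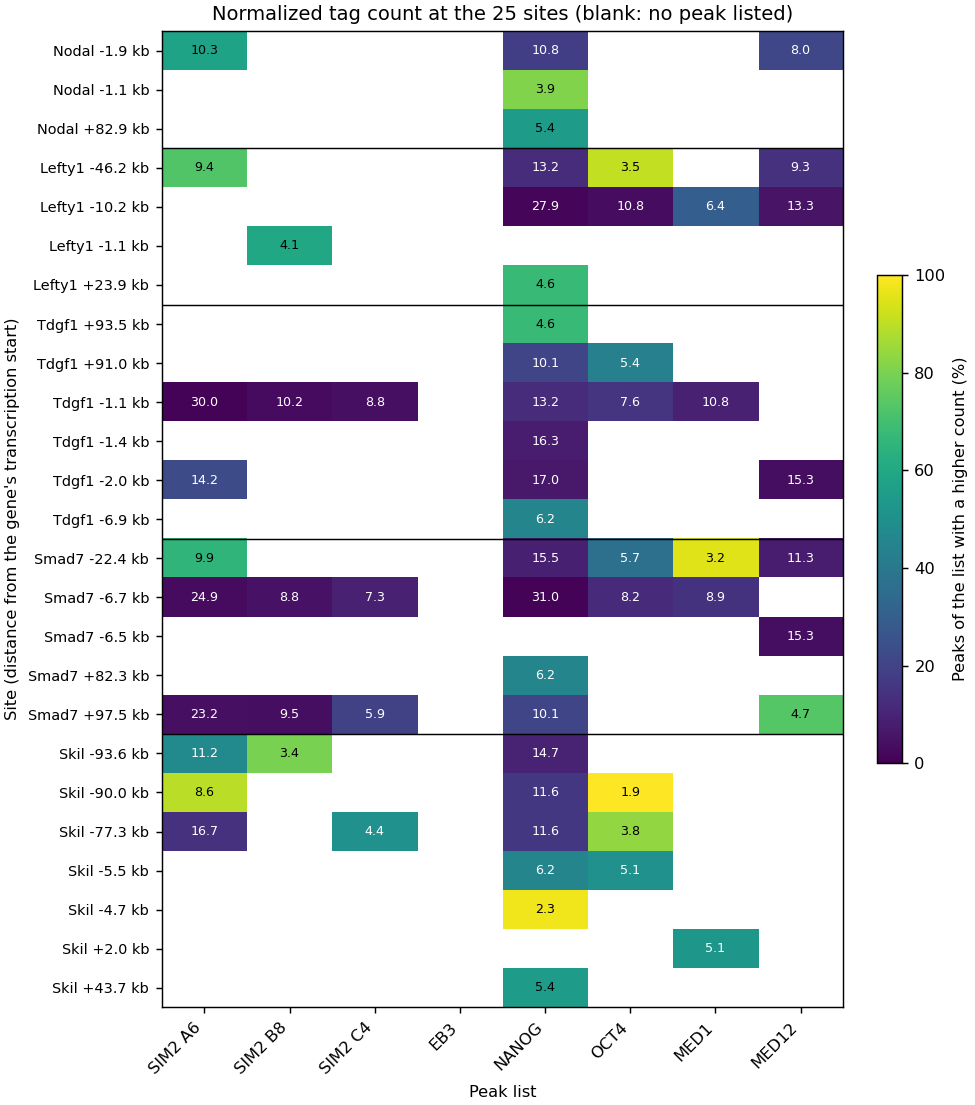
Normalized tag count (number in each cell) of each list at the 25 sites, in rows by gene and distance from its transcription start, with cell colour giving the percentage of the list's peaks with a higher count. Blank cells have no listed peak. Only the Tdgf1 -1.1 kb, Smad7 -6.7 kb and Smad7 +97.5 kb rows have values in all 3 SIM2 clones.

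With a single annotated start taken per gene, 0 of the 25 sites lay within 1 kb of a protein-coding start. The closest to a transcription start of the 6 genes was 1065 bp away, and 13 were within 10 kb of the start of one of the 6 genes. By the annotation 14 were intergenic, 10 intronic and 1 exonic, the last in an untranslated exon part of Skil. The paper places most of its SIM2 sites in intergenic and intronic regions and few in promoters. Its sites were SIM2 sites found in at least 2 clones, whereas 14 of the 25 sites here held no SIM2 peak. The 2 sets are therefore not alike. The shares over all sites were not computed here. At 16 of the 25 sites the nearest protein-coding start belonged to one of the 6 genes, while the others were closest to D830039M14Rik, Tmem63a, Prss50, Lrrc2, Prkci or Cldn11.

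The ligand gene Nodal (chr10:60880720-60888086, plus strand) had 3 sites, and SIM2 was listed at 1 of them, in 1 clone. At -1.9 kb, 1928 bp upstream of the start, A6 had a normalized tag count of 10.3, with 58.2% of its list above it, NANOG had 10.8 (18.6% above), and MED12 had 8.0 (21.3% above). B8, C4, EB3, OCT4 and MED1 had no peak there. The MED12 peak rested on 18 tags (exact 95% Poisson interval 10.7 to 28.4) and the NANOG peak on 21 tags (13.0 to 32.1), intervals that cover counting error only. The A6 and MED12 centres were 115 bp apart and belong to 1 site through the NANOG peak between them, and with steps of at most 50 bp the site no longer held 3 factors. The second Nodal site, at -1.1 kb, held NANOG alone at 3.9 (81.0% above), and the third, at +82.9 kb in an intron of Lrrc20, held NANOG alone at 5.4 (55.3% above). Nodal was the only one of the 6 genes without an OCT4 or a MED1 peak. Its 3 NANOG peaks were a number that 24.8% of protein-coding genes reached. At least 1 A6 peak was near 23.0% of them and at least 1 MED12 peak near 10.9%.

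The antagonist genes Lefty2 (chr1:182823239-182829234) and Lefty1 (chr1:182865153-182868531), both on the plus strand, shared 4 sites, and none of these had SIM2 in more than 1 clone. The strongest lay between the genes, 10178 bp upstream of Lefty1. NANOG reached 27.9 there, with 1.32% of its list above it, OCT4 10.8 (3.24%), MED12 13.3 (5.23%) and MED1 6.4 (29.9%). The NANOG peak rested on 71 tags (55.5 to 89.6) at 32.73 times the input, and the MED12 peak on 37 tags (26.1 to 51.0). No clone had a SIM2 peak at this site, although its 4 other factors lay within 61 bp of each other.

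At 4.3 kb upstream of Lefty2, which is 46.2 kb upstream of Lefty1, A6 had 9.4 (73.0% above), NANOG 13.2 (12.8%), MED12 9.3 (14.4%) and OCT4 3.5 (90.7%). The A6 centre was 25 bp from that of MED12 and 109 bp from that of NANOG. NANOG and MED12 were thus higher in their lists here than SIM2 and OCT4 in theirs. At -1.1 kb of Lefty1, B8 had its only peak of the locus, with 4.1 (59.8% above) on 12 tags (6.2 to 21.0). The fourth site, at +23.9 kb in an intron of Tmem63a, held NANOG alone at 4.6 (67.4% above). Of all protein-coding genes, 24.8% had at least the 3 NANOG peaks of the Lefty genes and 23.0% at least 1 A6 peak. At least 2 MED12 peaks were near 2.68% of them.

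The coreceptor gene Tdgf1 (chr9:110842114-110848662, minus strand) had 6 sites, 3 of them within 2.0 kb upstream of its start. The site at -1.1 kb held the highest value of the 10 A6 peaks, 30.0, with 0.964% of the A6 list above it. B8 had 10.2 there (2.85% above) on 33 tags (22.7 to 46.3), and C4 had 8.8 (4.12%) on 22 tags (13.8 to 33.3). MED1 had 10.8 (9.32%), NANOG 13.2 (12.8%) and OCT4 7.6 (15.3%), so that each of the 6 peaks had at most 15.3% of its list above it (27.6% by score, 22.8% by fold), and their centres spanned 48 bp. EB3 and MED12 had no peak at this site.

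MED12 was listed instead further upstream, at -2.0 kb of Tdgf1, where it had 15.3 (3.73% above) on 37 tags (26.1 to 51.0). With it were NANOG at 17.0 (6.8%) and A6 at 14.2 (23.3%), their 3 centres within 14 bp, and no peak of B8 or C4. Between these sites, at -1.4 kb, NANOG had a further peak of 16.3 (7.69%) with no other factor, 331 bp from the NANOG centre at -1.1 kb. At -6.9 kb, in an intron of Lrrc2, NANOG had 6.2 (45.7%). Beyond the 3' end, at +91.0 kb in an intron of Prss46, NANOG had 10.1 (20.9%) and OCT4 5.4 (43.7%), and at +93.5 kb NANOG had 4.6 (67.4%). Of all protein-coding genes, 4.72% had at least the 6 NANOG peaks of Tdgf1.

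The inhibitory SMAD gene Smad7 (chr18:75527183-75555589, plus strand) had 5 sites, of which 2 had SIM2 in all 3 clones and 1 held all 5 factors. At -6.7 kb A6 had 24.9 (2.85% above), B8 8.8 (4.87%) on 26 tags (17.0 to 38.1) and C4 7.3 (9.19%) on 18 tags (10.7 to 28.4). NANOG had the highest of its 22 values here, 31.0 (0.83%) on 75 tags (59.0 to 94.0). OCT4 had 8.2 (11.9%) and MED1 8.9 (14.7%). A MED12 peak of 15.3 (3.73%) on 39 tags (27.7 to 53.3) lay at -6.5 kb, 138 to 206 bp from the centres of the others, and so counted as a site of its own.

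At -22.4 kb of Smad7 all 5 factors were listed, with SIM2 in A6 only. MED12 had 11.3 (7.66% above), NANOG 15.5 (8.61%), OCT4 5.7 (37.1%), A6 9.9 (65.4%) and MED1 3.2 (95.3%). The centres spanned 130 bp, and A6 and NANOG were 103 bp apart. The place of the MED1 peak depended on the value ranked, with 42.9% of the list above it by score and 53.0% by fold. At +97.5 kb, in an intron of Ctif, A6 had 23.2 (4.06%), B8 9.5 (3.84%) on 25 tags (16.2 to 36.9) and C4 5.9 (19.8%) on 12 tags (6.2 to 21.0), with NANOG at 10.1 (20.9%) and MED12 at 4.7 (73.7%). In A6 and B8 this site and that at -6.7 kb were both in the strongest 5% of the list, while NANOG was lower in its list here. Another site, at +82.3 kb in an intron of Ctif, held NANOG alone at 6.2 (45.7%). Smad7 had 3 MED12 peaks, a number that 0.622% of protein-coding genes reached, and 2 MED1 peaks, which 1.83% reached. Its 4 NANOG peaks were reached by 14.2%.

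The corepressor gene Skil (chr3:30993980-31021499, plus strand) had 7 sites, and all 3 with SIM2 lay in introns of the upstream gene Prkci, which encodes an atypical protein kinase C. At -93.6 kb A6 had 11.2 (47.8% above), B8 3.4 (79.7%) on 13 tags (6.9 to 22.2) and NANOG 14.7 (9.98%). At -90.0 kb A6 had 8.6 (89.7%), which is the lowest value in the A6 list, NANOG 11.6 (16.3%) and OCT4 1.9 (99.8%). At -77.3 kb A6 had 16.7 (14.3%), C4 4.4 (50.6%) on 13 tags (6.9 to 22.2), NANOG 11.6 (16.3%) and OCT4 3.8 (83.8%). The NANOG centre there was 114 bp from that of A6 and 105 bp from that of OCT4. It belongs to the site through the C4 peak, 87 bp away. NANOG had at most 16.3% of its list above it at these 3 sites (22.9% by score, 22.1% by fold). Of the other 7 peaks, 5 had more than 50% of their list above them, against 4 by score and 3 by fold.

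Close to Skil itself no clone had a SIM2 peak. NANOG and OCT4 met at -5.5 kb with 6.2 (45.7% above) and 5.1 (50.4%), and NANOG had 2.3 (97.9%) at -4.7 kb. MED1 had 5.1 (53.1%) at +2.0 kb, in an untranslated exon part of Skil, the only Mediator peak of this locus, and NANOG had 5.4 (55.3%) at +43.7 kb. The 3 OCT4 peaks of Skil in all were reached by 1.24% of protein-coding genes. Without the Prkci sites, which lie beyond 50 kb, Skil had no SIM2 site.

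**Figure D4:**
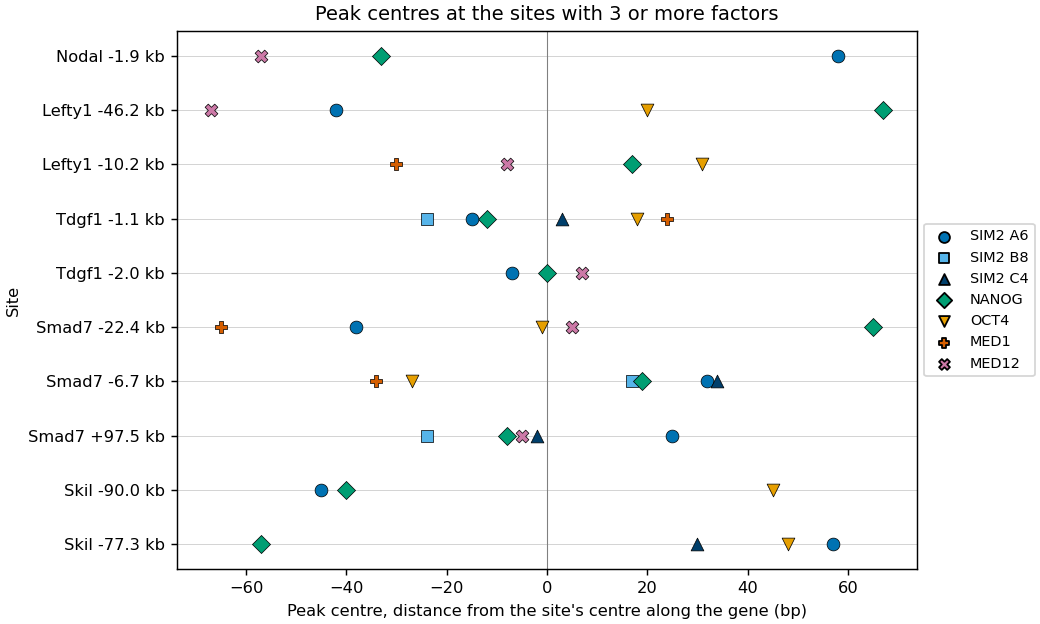
Peak centres at the 10 sites with at least 3 factors, as the distance from the site's centre along the gene (x axis, bp), 1 row per site and 1 symbol per list. The centres of Tdgf1 -2.0 kb lie within 14 bp, whereas those of Lefty1 -46.2 kb (Lefty2 -4.3 kb) span 134 bp and those of Smad7 -22.4 kb span 130 bp.

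Set against all 22350 protein-coding genes on the chromosomes with peaks, more of the 6 genes had a nearby peak of nearly every list. The 6 genes were chosen with earlier results of these data known, so this is not an independent comparison. A6 had a peak within 100 kb of 6 of the 6 genes and of 23.0% of all genes, B8 of 5 and 19.8%, and C4 of 3 and 6.07%. NANOG had one near 6 of the 6 and near 67.7% of all genes, OCT4 near 5 and 21.8%, MED1 near 5 and 7.98%, and MED12 near 5 and 10.9%. EB3 had none near the 6 genes and one near 1.14% of all genes. A NANOG peak is thus common around any gene, while MED1 and MED12 peaks are not.

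SIM2 sites in at least 2 clones were near 3 of the 6 genes (Tdgf1, Smad7 and Skil) and near 13.6% of all genes. SIM2 sites in all 3 clones were near 2 (Tdgf1 and Smad7) and near 4.58%. A site with at least 3 factors was near 6 of the 6 genes and 12.9% of all genes. With centres within 50 bp this was 4 genes (without Nodal and Skil) and 10.5%, and among peaks at least 8 times the input it was 3 genes (Lefty1, Lefty2 and Tdgf1) and 2.04%. With centres within 100 bp and all peaks, a site with at least 4 factors was near 4 (Lefty1, Lefty2, Tdgf1 and Smad7) and 5.72%. These counts were not tested, since Lefty1 and Lefty2 share their sites and genes are not replicates. The background genes were not matched to the 6 genes for expression or for the spacing of genes. At 50 kb, among peaks at least 8 times the input, and without clone A6, the genes with a SIM2 site in at least 2 clones were Tdgf1 and Smad7 alone.

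**Figure D5:**
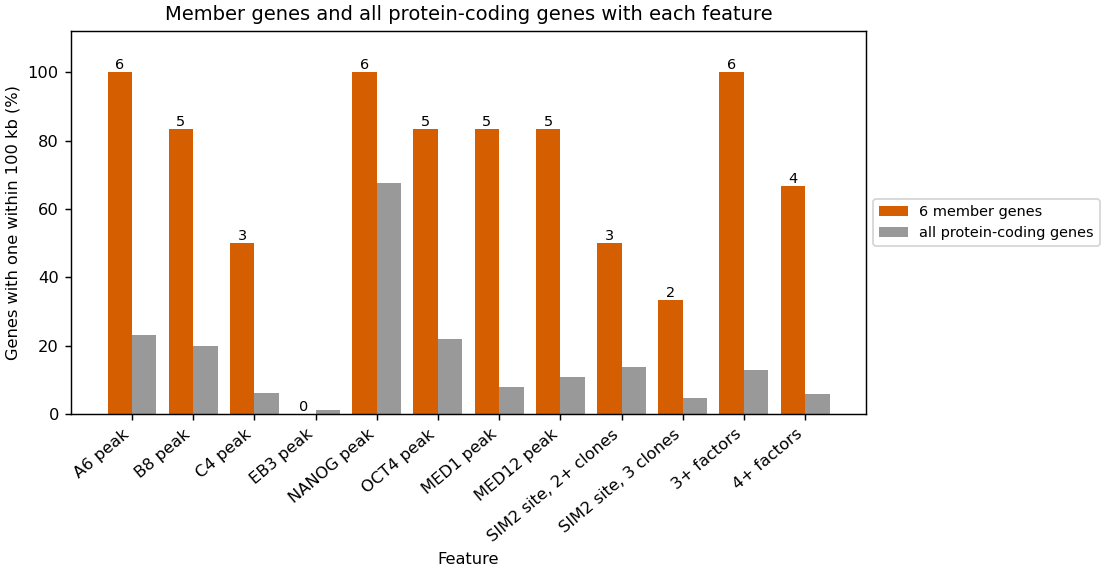
Share of genes (%) with each kind of peak or site within 100 kb of the gene body, for the 6 genes (orange, with the number of genes above the bar) and for all protein-coding genes (grey). The bars differ most for sites of at least 3 factors (6 of 6 genes against 12.9%) and for A6 peaks (6 of 6 against 23.0%), and least for EB3. The first gap rests on chaining at 100 bp and on all listed peaks. The 6 genes were chosen with earlier results of these data known.

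A wider list of 31 Nodal pathway genes showed shares closer to those of all genes. A SIM2 site in at least 2 clones was near 8 of them (25.8%), against 13.6% of all genes. A6 peaks were near 10 (32.3%), NANOG peaks near 20 (64.5%) and OCT4 peaks near 6 (19.4%). MED1 peaks were near 4 (12.9%), MED12 peaks near 6 (19.4%) and EB3 peaks near 0. A site of at least 3 factors was near 6 (19.4%), against 12.9% of all genes. One of at least 4 factors was near 4 (12.9%), against 5.72%. By role, SIM2 sites were near 2 of 4 ligands, 1 of 4 receptors, 0 of 1 other coreceptor, 0 of 2 processing enzymes, 1 of 4 SMADs and their partner, 2 of 10 inhibitors and 2 of 6 targets. All 31 genes were found in the annotation.

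Among the ligands, Gdf3, which acts through the same receptors as Nodal, had a site at +1.5 kb from its start with A6 at 9.0, B8 at 5.4, NANOG at 7.0 and OCT4 at 5.4. Its second site, 92.9 kb upstream, lay 4.5 kb from the start of Nanog and held A6 at 12.0, B8 at 4.1, OCT4 at 3.8, MED1 at 8.3 and MED12 at 10.6. Inhbb, which encodes an activin subunit, had a site 23.3 kb downstream of its start with all 5 factors: B8 at 4.8, C4 at 3.7, NANOG at 12.4, OCT4 at 6.3, MED1 at 15.9 and MED12 at 17.3. A6, the clone in which NANOG, OCT4, MED1 and MED12 were mapped, had no SIM2 peak at this site. These 2 ligand genes were among the 4 of the 31 (12.9%, against 5.72% of all genes) with a site of at least 4 factors, beside Tgif1 and Eomes.

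The receptor gene Acvr1b had a site in all 3 clones 104.5 kb downstream of its start, with A6 at 14.2, B8 at 6.1, C4 at 5.1 and NANOG at 4.6, which was nearer to another gene. Its second site, at -91.8 kb, held A6 at 11.2, B8 at 4.1 and NANOG at 5.4 and was closest to the start of Ankrd33. Smad4, the shared partner of the receptor SMADs, had a site at -11.8 kb with A6 at 10.3, B8 at 3.4 and no other factor. Among the inhibitors, Fst, which encodes the activin antagonist follistatin, had a site in all 3 clones at +52.3 kb with A6 at 15.0, B8 at 10.2, C4 at 2.9, NANOG at 13.2 and OCT4 at 4.1. The start closest to this site was that of Ndufs4, 18.6 kb away. Tgif1, a corepressor of SMAD2, had SIM2 in A6 and B8 at +97.9 and +102.3 kb with NANOG, and had in all 5 A6, 3 B8, 10 NANOG, 5 OCT4, 3 MED1 and 5 MED12 peaks within 100 kb.

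Of the targets, the mesendoderm gene Eomes had a site at -71.9 kb with A6 at 15.9, B8 at 6.1, NANOG at 7.0 and OCT4 at 7.0.

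The genes elsewhere whose surroundings were most like those of the 6 genes were found from the normalized tag counts summed within 100 kb of each gene, as the distance over the 8 lists on the log2(sum + 1) scale. For Nodal these were Map3k12 (0.07), Phb (0.12) and Tmem145 (0.37), all with 1 A6 and 3 NANOG peaks and with MED12. For the Lefty genes they were Spp1 and Gm10047 (0.86 each) and Ncoa1 (0.9). For Tdgf1 they were the neighbours Bfar, Pla2g10 and Rrn3 (0.79 each), which share 1 set of peaks. For Smad7 they were 5730596B20Rik (1.04), Islr2 and 1600029O15Rik (1.14 each), and for Skil Mdfi (1.08), 1700016M24Rik (1.46) and Mrpl48 (1.5). Tdgf1 and Smad7 were each other's nearest among the 6 genes (1.44), while Nodal was 5.71 from the nearest, Lefty1, and Skil 4.47 from Tdgf1. No other gene on the pathway list was among these.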

How the data were processed

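Peak lists from ChIP-seq in mouse ES cells were used, with 1 library for each list: SIM2 FLAG ChIP in the clones A6, B8 and C4 (replicates 1, 2 and 3), FLAG ChIP in EB3, and NANOG, OCT4, MED1 and MED12 ChIP in A6. For the deposited lists, BWA was used by the authors to place reads on mm9, duplicate reads were dropped, and HOMER at its default settings compared every ChIP library with an input. OCT4 and NANOG share 1 input, as do MED1 and MED12. The deposited normalized tag count is a signal computed by HOMER for the authors, and it is not a constant multiple of the listed tags. The deposited score, total tags (whole counts in B8, C4, NANOG, MED1 and MED12), focus ratio (a fraction), fold over the input (a ratio) and p-value are also the caller's, and the focus ratio and p-values were not used as evidence here. The library totals are not given in the sources used here, so depth enters only through the tags of each peak.

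Gene bodies were those of GENCODE vM1 (mm9). Peaks with centres within 100 bp were chained into sites, and a SIM2 site needed at least 2 of the 3 clones and no EB3 peak. The plan was to name sites with SIM2 in at least 2 clones, those with 3 or more factors, and each list's highest peak per gene. All 25 sites near the 6 genes are given above, including those outside this rule. The 6 genes, the wider list of 31 and the motifs were chosen with earlier results of these data known. No test was made, because peaks and genes are not replicates. The reach, site distance, peak threshold, EB3 filter, ranked value and clones were varied, and the genes with a site of 3 or more factors were recounted under these settings after seeing the data. The site building was tested on simulated data, with peaks of a site closer than 100 bp and sites far apart. Chaining near the 100 bp limit was therefore not tried. SOX2 ChIP was not analysed here. Of the genes in the wider list with a SIM2 site, 1 is counted but its values are not reported here. Python 3.11.15 with numpy 2.4.6, pandas 2.3.3, scipy 1.17.1 and matplotlib 3.10.9 was used.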

Additional observations from a re-analysis of the deposited data

How the results depend on the processing

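The number of genes with a SIM2 site in at least 2 clones was 3, and 2 to 3 in the alternatives and with 1 clone left out. The 5 SIM2 sites that held another factor fell to 2 within 50 kb and to 3 among peaks at least 8 times the input, and were 3 to 4 with 1 clone left out (3 without A6). Among peaks at least 8 times the input, 29 of the 62 peaks and 3 of the 10 sites with at least 3 factors were left, near 3 of the 6 genes in place of 6, because fewer peaks were used. With centres within 50 bp, 6 sites had at least 3 factors, and leaving out 1 clone gave 7 to 10. The genes near such a site were 4 with centres within 50 bp and 5 to 6 with 1 clone left out, a count added after seeing the data. The share of all genes with a SIM2 site, 13.6%, was 8.5% within 50 kb, 22.8% within 200 kb and 12.0% over all annotated genes. Ranking by score or by fold over the input moved 46 and 48 of the 62 ranks, with medians of 28.5% and 26.1% in place of 20.3%. No paired analysis was possible because no result comes from a test. Low tag numbers, 10 to 75 at a peak in the lists with whole counts, limit what can be said of a peak missing from a list.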
